A study of Homo sapiens with 16 samples.

Results

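CTCF and acetylated histone H3 lysine 27 (H3K27ac) were compared by CUT&Tag in vehicle-treated HEK293 cells of the eGFP-YAP genotype. The comparison uses the 2 CTCF and the 2 H3K27ac vehicle libraries, 4 of the 16 libraries counted in the series. Intervals of the shared peak set were kept where they lay on chromosomes 1 to 22 or X and outside the YAP1 gene, which left 73975 of 74404. HEK293 is an established human embryonic kidney line, and all 16 libraries carry the same eGFP-YAP genotype. The other libraries were made with antibodies against RAD21 or against GFP, which reads eGFP-YAP, and each antibody was also used after 1 h in 200 mM sorbitol. The series' design text gives 1 h of serum starvation ahead of sorbitol, and does not say whether vehicle cells of these libraries had it too, nor whether the eGFP-YAP line is a single clone. The labels do not say whether replicates came from separate cultures, so p-values measure only the spread between these libraries. Background of an unspecific antibody was not analysed here. The ratio of 2 antibodies ranks intervals against each other and is not a measure of occupancy.

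CTCF is a zinc finger protein that binds a long, oriented DNA motif and halts the cohesin ring, of which RAD21 is a subunit, so that convergent CTCF sites mark the bases of many chromatin loops. H3K27ac is laid down by the acetyltransferases p300 and CBP on nucleosomes that flank active promoters and enhancers. CUT&Tag cuts DNA with a transposase tethered to the antibody, so a site-specific protein gives a narrow signal and a histone mark a broad one.

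The sequence that CTCF reads is shown first, because the comparison turns on it. Each line gives 50 bases of hg38 on the strand of the match, and capitals mark the 14 bases aligned to the CTCF consensus. The first lines are the X-linked and chromosome 22 intervals with no H3K27ac count. Next come intervals at or near annotated start sites of CACNA1A and TNNT2, which need not be the main promoters of these genes. The last is an intronic CSNK1E interval with high H3K27ac and few CTCF counts. The CACNA1A stretch overlaps an exon of that gene, and the other 4 lines overlap no annotated exon.
ARHGAP6 intron, chrX:11533301-11533350, forward strand, 0 mismatches: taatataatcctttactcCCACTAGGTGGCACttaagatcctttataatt
Intergenic, chr22:49305324-49305373, reverse strand, 0 mismatches: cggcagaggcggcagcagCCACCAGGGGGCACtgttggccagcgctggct
CACNA1A, chr19:13277319-13277368, forward strand, 0 mismatches: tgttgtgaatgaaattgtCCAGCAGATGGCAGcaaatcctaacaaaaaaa
TNNT2, chr1:201361798-201361847, reverse strand, 0 mismatches: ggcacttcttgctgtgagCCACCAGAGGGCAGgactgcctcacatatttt
CSNK1E intron, chr22:38315153-38315202, reverse strand, 1 mismatch: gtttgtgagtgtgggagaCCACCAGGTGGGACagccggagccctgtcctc

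The 2 CTCF libraries held 3616235 and 2475732 counts in the analysed intervals, and the 2 H3K27ac libraries held 6373918 and 6351415. These were 80.1% and 74.5% of all CTCF counts and 97.1% of H3K27ac counts in each library. Replicates differed by more than sampling noise, with a chi-square per degree of freedom of 2.43 for CTCF and 1.87 for H3K27ac. Across the tested intervals Pearson's r of log2 raw counts, with a constant added, was 0.910 between CTCF replicates and 0.951 between H3K27ac replicates. Between the antibodies it was 0.203 to 0.217. These are values across intervals, which are not independent replicates. A set of 36 intervals, each above 0.1% of the counts of some vehicle library, held 8.24% and 11.9% of analysed CTCF counts and 2.89% and 3.16% of H3K27ac counts. They held 14.7% and 23.6% of RAD21 counts and 14.9% and 16.98% of eGFP-YAP counts. One of them, chr2:32916142-32916614, took 3.59% and 5.65% of CTCF counts and 2.11% and 2.40% of H3K27ac counts. Others lay at nuclear copies of mitochondrial genes (MTND2P28, MTCO1P12) and at YAP1P1, a YAP1 pseudogene. How reads with several equal placements were counted is not given in the sources used here. Some of the results below are given with and without them.

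Most tested intervals were called higher in one antibody than in the other, which does not mean that the other was absent. Of the 59413 intervals with enough counts to test, 25350 were higher in CTCF, 25588 were higher in H3K27ac and 8475 were called for neither, at an adjusted p under 0.05 (edgeR quasi-likelihood test, Benjamini-Hochberg). The calls were therefore 42.7% and 43.1% of tested intervals, 85.7% together, and every share below is read against these. A ratio of at least 4-fold was met by 20335 of the CTCF-higher and 16289 of the H3K27ac-higher intervals. Promoters are here intervals no more than 1 kb from an annotated start site of transcription. CTCF-higher intervals had a median width of 457 bp and a median GC content of 49.2%, and 18.1% were promoters. H3K27ac-higher intervals had a median width of 704 bp and a GC content of 59.7%, and 63.2% were promoters. Over all tested intervals these values were 490 bp, 55.1% and 39.1%, and intervals called for neither had a median width of 381 bp. The CTCF consensus, with at most 1 mismatch on either strand, was present in 46.1% of CTCF-higher and 4.19% of H3K27ac-higher intervals, and in 22.4% of all tested ones. A wider interval offers more room for a match. In a fixed 300 bp window at the centre the shares were 43.6% and 1.40%, and 19.9% over all tested intervals. The split of calls depends on scaling between the antibodies, since the median log2 ratio of CTCF to H3K27ac over all tested intervals was -0.31 with TMM scaling, 0.11 with scaling to the total count and 0.26 with GC-corrected offsets. Scaling to the total gave 26788 CTCF-higher and 21967 H3K27ac-higher calls, and DESeq2 gave 23610 and 16776.

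Position and sequence together separated the calls. Of all 23220 tested promoters, 69.7% were H3K27ac-higher and 19.7% CTCF-higher. Of 9911 distal intervals (over 1 kb from a start site) with a consensus, 9456 were CTCF-higher, 176 were H3K27ac-higher, and the median log2 ratio was 3.18. Their median level was 28.2 CPM (here counts per 1e+06 of the TMM-scaled library total) per kb for CTCF and 3.34 for H3K27ac. Of 19812 promoters without a consensus, 15283 were H3K27ac-higher and 2349 CTCF-higher, with a median log2 ratio of -2.08 and median levels of 8.63 for CTCF and 33.5 CPM per kb for H3K27ac. Promoters that held a consensus were divided: 2227 of 3408 were CTCF-higher and 896 were H3K27ac-higher. Distal intervals without a consensus were divided too, with 11318 CTCF-higher, 9233 H3K27ac-higher and 5731 called for neither. Many CTCF-higher intervals thus lacked the consensus at 1 mismatch. With GC-corrected offsets, promoters without a consensus had 9269 H3K27ac-higher and 4914 CTCF-higher calls and a median of -0.52. Distal intervals without one had 8778 and 7923, and distal consensus intervals 278 and 7119, with a median of 2.24.

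**Figure D1:**
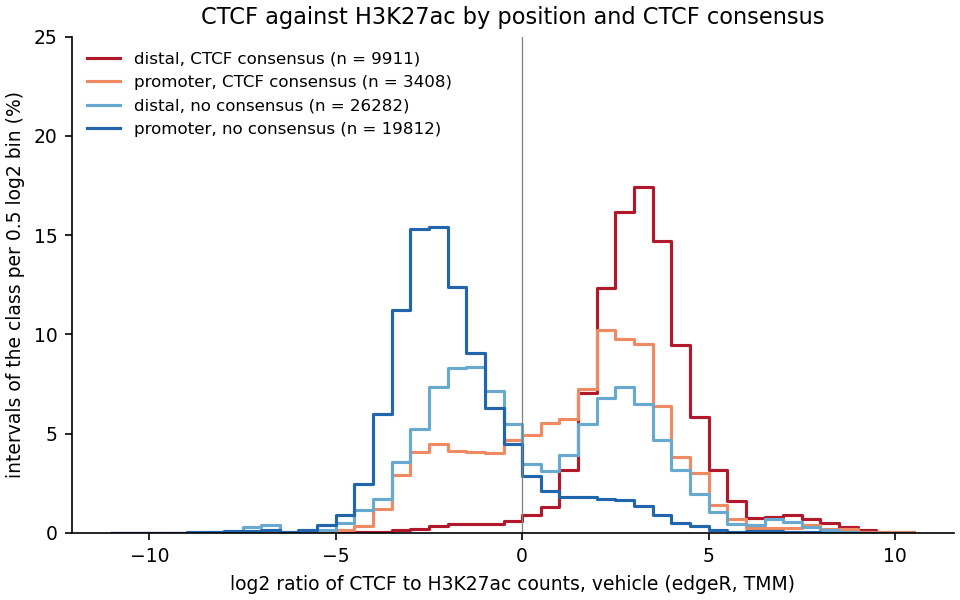
Share of intervals (y axis, percent of each class per bin of 0.5) against the fitted log2 ratio of CTCF to H3K27ac counts with vehicle (x axis) for 4 classes of tested intervals. Distal consensus intervals centre on 3.18 and promoters without a consensus on -2.08, while promoters with a consensus and distal intervals without one spread over both sides of 0.

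The difference between the median log2 ratio of distal consensus intervals and that of all promoters was 5.04. Taken on each pairing of 1 CTCF with 1 H3K27ac library, as ratios of CPM with 0.5 added, it was 4.50 to 4.53, so the pairings differed little. With GC-corrected offsets it was 2.50. That correction levels the ratio across GC content, and GC content differs between these classes, so GC content and promoter position cannot be told apart in it.

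The better the match to the consensus, the further the balance lay toward CTCF. Among distal intervals the median log2 ratio was 3.39 with an exact match (2623 intervals), 3.12 with 1 mismatch, 2.52 with 2, -0.63 with 3 and -0.998 with 4 or more, for the best match in the central 300 bp. CTCF-higher calls made up 98.9%, 94.97%, 75.9%, 35.0% and 23.9% of these classes. Among promoters the medians were 3.05, 2.32, -1.43, -2.14 and -2.19, so the change of side came at 2 mismatches, earlier than in distal intervals. At distal intervals with at least 3 consensus matches the median was 5.89 (59 intervals), with 96.6% CTCF-higher. Position within the interval also differed between the classes. In CTCF-higher intervals the best consensus match lay a median of 49 bp from the centre, against 264 bp in H3K27ac-higher intervals, which are wider. The match lay within 50 bp of the centre in 50.9% and 11.9% of cases, and on the forward strand in 50.7% and 46.3%.

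**Figure D2:**
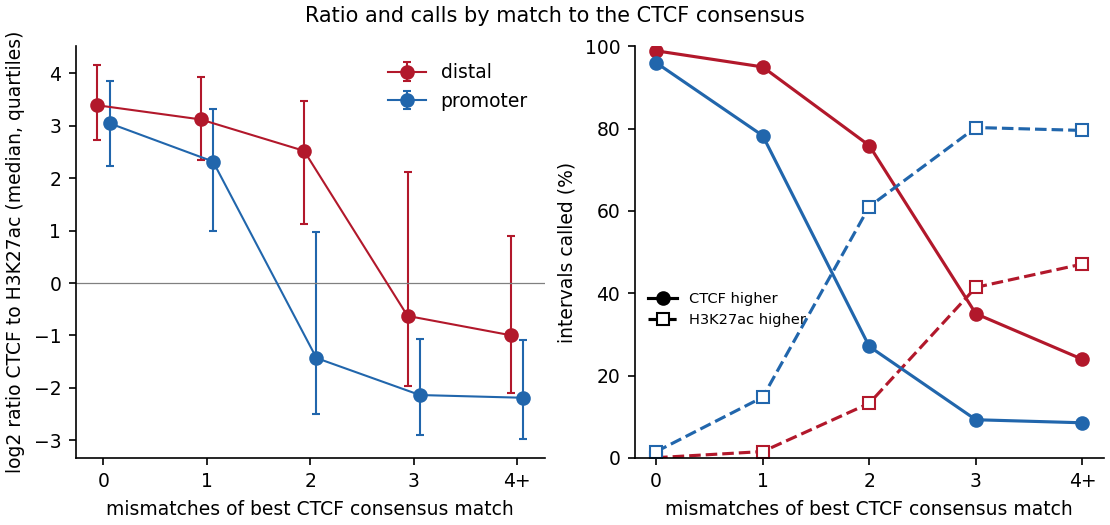
Left, median log2 ratio of CTCF to H3K27ac with quartiles against the number of mismatches in the best match to the CTCF consensus, for distal (red) and promoter (blue) intervals. Right, the percent of the same intervals called CTCF-higher (filled, solid) or H3K27ac-higher (open, dashed). CTCF-higher calls fall from 98.9% to 23.9% of distal and from 96.0% to 8.51% of promoter intervals.

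The ratio changed sharply near the start site and little beyond it. Intervals that overlap a start site had a median log2 ratio of -2.06, with 78.7% H3K27ac-higher and 12.4% CTCF-higher calls. Up to 0.5 kb from a start site the median was -0.81, and between 1 and 2 kb it was 1.10. From 2 kb outward it stayed between 1.89 and 1.98. Among intervals that overlap a start site, those with a consensus had a median of 0.34 and those without one -2.19. Beyond 50 kb the corresponding medians were 3.34 and 0.16. The median was higher with a consensus than without one in each of the 8 distance classes.

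**Figure D3:**
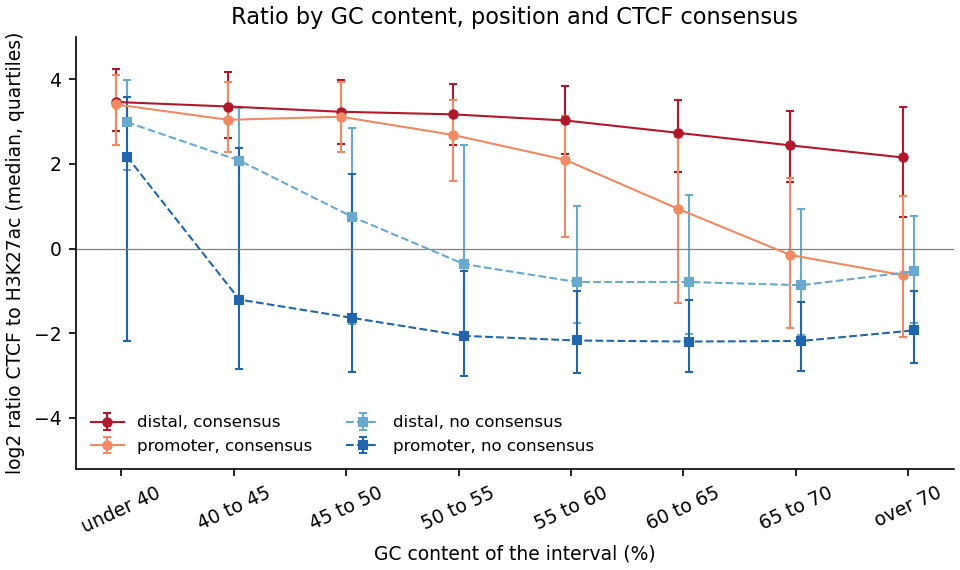
Median log2 ratio of CTCF to H3K27ac with quartiles against GC content of the interval, for distal and promoter intervals with (circles) and without (squares) the CTCF consensus. At 50 to 55% GC the 4 medians are 3.17, 2.68, -0.37 and -2.06, and promoters with a consensus move from 3.40 under 40% GC to -0.63 over 70%.

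The ratio was lower at high than at low GC content in all 4 classes, but not evenly. Distal consensus intervals had a median log2 ratio of 3.46 under 40% GC and 2.15 over 70% GC. Promoters with a consensus went from 3.40 to -0.63 over the same range. Those without one went from 2.17 under 40% GC to -2.06 at 50 to 55% and lay between -2.20 and -1.93 above that. Distal intervals without one went from 2.98 to -0.79 at 55 to 60% and lay between -0.87 and -0.54 above that. At 50 to 55% GC, where all classes are well filled, the medians were 3.17 for distal and 2.68 for promoter intervals with a consensus, and -0.37 and -2.06 for those without. The difference between intervals with and without a consensus was therefore present at matched GC content.

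Shares taken inside each library do not depend on scaling between antibodies. Promoters held 44.4% ± 0.874 (SD, n = 2) of CTCF counts and 80.4% ± 0.00431 of H3K27ac counts, a difference of -36.0 percentage points. Consensus intervals held 38.1% ± 1.03 of CTCF and 11.5% ± 0.0259 of H3K27ac counts. Distal consensus intervals alone held 24.7% ± 0.552 and 2.83% ± 0.0105. Each difference was many times the spread between replicates, and the two-sided exact permutation test gave p = 0.33, which 2 against 2 libraries cannot go below. With exact matches only, the consensus difference was 10.2 points, and with up to 2 mismatches 15.4 points. Without intervals above 0.1% of any of the 4 libraries, the promoter difference was -36.3 points and the consensus difference 30.4, against 26.7 with them.

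The distal intervals with the highest ratios of CTCF to H3K27ac had no H3K27ac count, which choosing by the ratio favours; they are shown as a description. Intervals with more CTCF counts did carry H3K27ac: the 2452 in the top 5% of both CTCF libraries stood at a median H3K27ac percentile of 49.0. The interval in an intron of ARHGAP6 held 116 and 95 CTCF counts and 0 H3K27ac counts in both libraries. Against the floor of 3 counts per library its CTCF level was at least 56.0-fold higher. The chromosome 22 interval, far from protein-coding genes, had 135 and 82 CTCF counts and none for H3K27ac, at least 55.9-fold higher. An interval near IGHV1OR16-1, an immunoglobulin pseudogene on chromosome 16, held 11 consensus matches and 148 and 83 CTCF counts, at least 59.0-fold above the same floor. Those near LINC00113 (106 and 88 counts) and in CYP4Z2P (116 and 71 counts) were at least 51.6-fold and 48.2-fold higher. Adjusted p-values of these 5 were 4.3e-13 to 2.4e-12. RAD21 counts at these intervals lay between 1 and 22 per library.

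Some promoters were also on the CTCF side. CACNA1A, which encodes the pore of P/Q-type calcium channels in neurons, had an interval over coding sequence at an annotated start site. Whether that site is the main promoter of the gene was not tested. The interval held 458 and 283 CTCF counts against 10 and 0 H3K27ac counts. Its log2 ratio was 6.80 ± 0.30 (SE), with an adjusted p of 3.2e-16. All 10 H3K27ac counts came from replicate 1: without that library the log2 ratio was 11.7, a fitted value against 0 counts and no bound, and without replicate 2 it was 5.77. The interval holds the exact consensus shown above. OR2T1, an olfactory receptor gene, had 119 and 109 CTCF counts and no H3K27ac count, at least 61.3-fold higher, although its best consensus match had 3 mismatches. That interval lay 976 bp from the OR2T1 start site. OLFM1, a secreted neuronal glycoprotein gene, had 89 and 62 CTCF counts against 0 and 2, a ratio of 118 with a 95% counting interval of 32.0 to 979. SCGB1C1, a secretoglobin gene, had 83 and 56 against 0 and 2, at an interval 923 bp from its start site and in an intron of BET1L. CT45A10, of a testis antigen family with near-identical copies, had 113 and 86 against 0, a value that is uncertain because copies may share reads.

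On the H3K27ac side, the extreme intervals had at most a few CTCF counts. At CSNK1E, the casein kinase 1 epsilon gene, an intronic interval 1309 bp from the start site had 554 and 644 H3K27ac counts against 9 and 5 for CTCF. Its log2 ratio was -5.76 ± 0.23, with an adjusted p of 1e-16. The consensus with 1 mismatch printed above lies in it, so a match did not go with CTCF counts there. Intervals in UBP1 (92 and 67 H3K27ac counts against 0 and 1), at SNX5 and OVOL2 (83 and 71 against 1 and 0), in LRP5, a WNT co-receptor gene (128 and 125 against 1 and 1), and in PCGF3 (82 and 75 against 0 and 2) were the other extremes among distal intervals. All 5 lay between 1309 and 1979 bp from a start site, just outside the promoter limit. Among promoters, HMGB3, a chromatin-associated HMG-box gene, had 93 and 74 H3K27ac counts and no CTCF count, at least 17.1-fold. BICD1 (83 and 103 H3K27ac counts against 1 and 0) had a ratio of H3K27ac to CTCF of 119, with a counting interval of 21.2 to 4744, and UCHL5 (173 and 163 against 1 and 1) one of 108, with an interval of 29.6 to 895. The UCHL5 interval is intronic, 998 bp from a UCHL5 start site and nearer to SCARNA18B, at 493 bp. CFAP20DC had 69 and 87 against 0 and 1.

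Gene lists were read at the intervals within 1 kb of a start site of a listed gene. Over all 19206 such intervals of protein-coding genes, 90.2% were called, 75.3% as H3K27ac-higher and 14.9% as CTCF-higher, with a median log2 ratio of -2.05, so the H3K27ac side is the usual one for a promoter. Ribosomal protein genes, the housekeeping genes of the translation machinery, were H3K27ac-higher at 101 of 112 intervals, with a median of -2.97. The interval at RPL35A had 123 and 146 H3K27ac counts against 0 and 2 for CTCF, while RPL36 had 43 and 42 against 142 and 62. Genes of oxidative phosphorylation were H3K27ac-higher at 55 of 59 intervals (median -2.71). ATP5F1C, the gamma subunit of ATP synthase, had 896 and 861 H3K27ac counts and 35 and 10 CTCF counts. Histone genes were H3K27ac-higher at 53 of 59 (median -2.07), close to the median of protein-coding promoters.

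**Figure D4:**
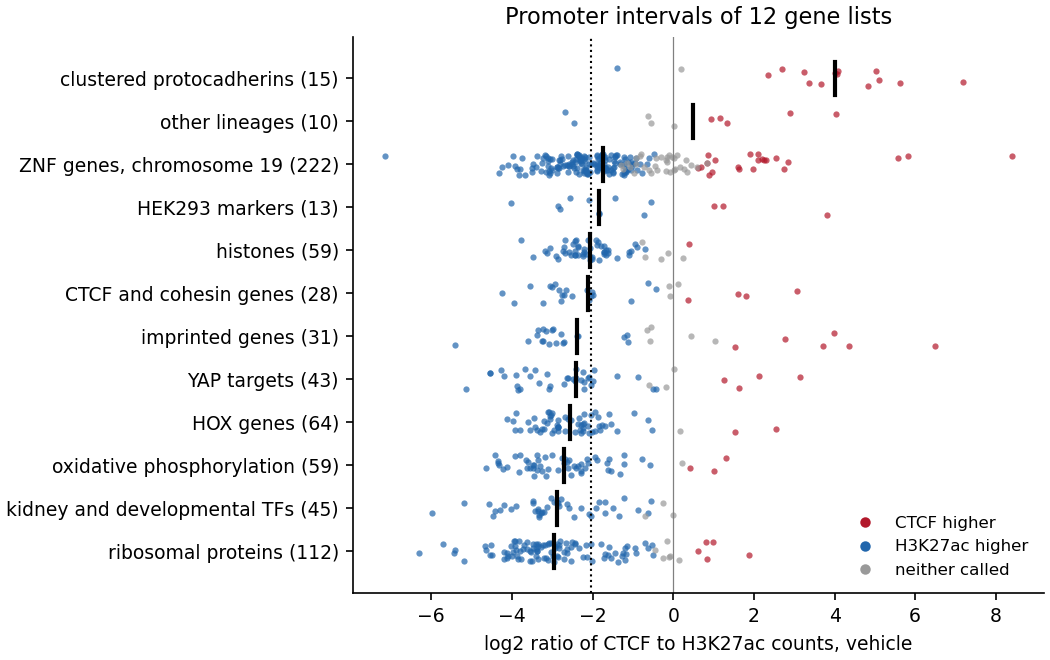
Log2 ratio of CTCF to H3K27ac (x axis) of each tested promoter interval in 12 gene lists (y axis, number of intervals in brackets), coloured by call, with the list's median as a black bar and the median of protein-coding promoters, -2.05, as a dotted line. Clustered protocadherins lie on the CTCF side (median 4.02) and ribosomal protein genes on the H3K27ac side (median -2.97).

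Developmental genes of the kidney lineage and the HOX genes lay on the H3K27ac side. Of 45 intervals at kidney developmental transcription factors, 42 were H3K27ac-higher and none CTCF-higher, with a median of -2.89. FOXC1 had 142 and 169 H3K27ac counts against 3 and 0, and SALL1 had 343 and 376 against 36 and 26. At HOX genes, 61 of 64 intervals were H3K27ac-higher (median -2.57). HOXB9 had 186 and 251 H3K27ac counts and 9 and 7 CTCF counts. A CTCF-higher interval in the HOXC cluster, at HOXC5, had 207 and 157 CTCF counts against 48 and 49, a log2 ratio of 2.55 ± 0.20. YAP target genes were H3K27ac-higher at 36 of 43 intervals (median -2.41). CCN2, a standard YAP reporter gene, had a log2 ratio of 0.01 and was called for neither, and CCN1 was at -0.43 ± 0.12, called H3K27ac-higher. The genes for CTCF, cohesin and their partners were H3K27ac-higher at 21 of 28 (median -2.11). That share of 75% is near the 75.3% of all protein-coding promoters, whose median was -2.05. MAU2, a subunit of the cohesin loader, was H3K27ac-higher at 2 intervals near its first exon, with log2 ratios of -3.05 and -3.54. An interval at an internal start site within its coding sequence, chr19:19342532-19343223, had 116 and 106 CTCF counts against 21 and 21. The promoter of CTCF itself was H3K27ac-higher at -0.63 ± 0.10, with 517 and 319 CTCF counts against 1055 and 954.

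Zinc finger genes of chromosome 19 were H3K27ac-higher at 166 of 222 intervals (median -1.75), a share of 74.8% that is near the 75.3% of all protein-coding promoters. The extreme on the CTCF side was ZNF763, with 43 and 24 CTCF counts and none for H3K27ac. Imprinted genes, expressed from one parental allele, were H3K27ac-higher at 20 of 31 intervals and CTCF-higher at 6, with a median of -2.38. These shares of 64.5% and 19.4% stand beside 75.3% and 14.9% of all protein-coding promoters. The CTCF-higher ones include the region upstream of H19, where CTCF binding to the unmethylated maternal allele is textbook knowledge. The interval at chr11:2002035-2003143 had a log2 ratio of 4.36 ± 0.27, and that at chr11:1999892-2000209 one of 3.71 ± 0.46. IGF2, the gene this region insulates, had an interval with 71 and 59 CTCF counts against 1 and 1. The promoter of KCNQ1OT1, an imprinted antisense RNA, was at -3.34.

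Clustered protocadherins encode neuronal surface proteins and are known for CTCF binding at the promoters of many members. Here 13 of 15 tested intervals were CTCF-higher, 86.7% against 14.9% of protein-coding promoters, with a median log2 ratio of 4.02, or 3.67 with the interval that had no H3K27ac count set at its bound. PCDHGB3 had 15 and 13 CTCF counts and none for H3K27ac, and PCDHB15 had 19 and 24 against 2 and 2. Counts were thus small, and 18 of the 53 genes had an interval at all. An interval with as few H3K27ac counts as these 2 passes the count filter only through CTCF, which favours a CTCF-higher call. The 86.7% is therefore only a description of the tested intervals. None of the tested intervals held the consensus at 1 mismatch.

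Of the 13 intervals at genes used as HEK293 markers, 10 were H3K27ac-higher, 76.9% against 75.3% of protein-coding promoters, and 3 were CTCF-higher. VIM (vimentin) had 912 and 966 H3K27ac counts against 225 and 116, and LHX1, a kidney progenitor factor, had 54 and 52 against 3 and 1. The CTCF-higher ones were both intervals at NES, which encodes the intermediate filament nestin (192 and 105 CTCF counts against 16 and 16, and 84 and 39 against 46 and 47), and a second VIM interval with 27 and 25 against 21 and 14. INA had no tested promoter interval. Of 10 intervals at genes of other lineages, 5 were CTCF-higher and 2 H3K27ac-higher. TNNT2, cardiac troponin T, had 209 and 131 CTCF counts against 12 and 20 around the exact consensus printed above. That interval overlaps an untranslated exon and lies 222 bp from an annotated start site, which need not be the main promoter. No tested interval lay at 7 of those 14 genes.

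With GC-corrected offsets the median over protein-coding promoters was -0.37, and list medians and calls moved with it. Kidney factors then had 30 H3K27ac-higher and 7 CTCF-higher calls, HOX genes 41 and 7, YAP targets 24 and 8, imprinted genes 13 and 13, HEK293 markers 3 and 5, CTCF and cohesin genes 15 and 11, and zinc finger genes 91 and 58. Medians were -2.06 for ribosomal proteins, -2.05 for oxidative phosphorylation, -1.74 for histones, -1.09 for HOX genes, -1.05 for kidney factors, -0.90 for YAP targets, -0.75 for CTCF and cohesin genes, -0.40 for zinc finger genes and -0.26 for imprinted genes. The HEK293 markers changed side, to 0.23, and other lineages were at 2.14 and protocadherins at 2.72. SALL1 and RPL36 were not called under this setting, and VIM was called on the CTCF side, at 0.31 (adjusted p = 0.031, edgeR). Scaling to the total count kept the side of each of the 12 list medians. A minimum mean of 50 counts kept it too but left 1 of 15 protocadherin and 4 of 10 other-lineage intervals. Medians on the H3K27ac side moved toward CTCF under this filter. They were -0.94 for protein-coding promoters, -1.57 for ribosomal proteins, -1.39 for HOX genes and -0.60 for zinc finger genes. The other-lineage median moved the same way, from 0.48 to 1.78, away from equal levels. Of the lists, only the protocadherins, with 1 interval left, had a lower median. The DXZ4 array, described below, kept its 21 tested intervals and went from 2.21 to 3.51. Kidney factors had 4 CTCF-higher calls under this filter.

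Short motifs of promoter-binding factors were counted in the central 300 bp of promoter intervals, on both strands. The GC box of SP and KLF factors (GGGCGG) was in 60.9% of H3K27ac-higher and 31.2% of CTCF-higher promoters, and in 54.2% of all tested promoters. The ETS motif (CCGGAAG) was in 9.82% and 4.76%, against 8.41% of all promoters. The YY1 motif (ATGGCGGC) was in 3.93% and 1.16%, against 3.19%, and the NRF1 motif (GCATGCGC) in 2.10% and 1.01%, against 1.84%. Other motifs lay the other way at promoters: the CCAAT box of NFY (CCAAT) was in 22.2% of H3K27ac-higher and 26.03% of CTCF-higher ones, against 23.1% of all. TEAD (GGAATG) was in 10.4% and 14.2%, against 11.3%, AP-1 (TGANTCA) in 4.13% and 6.27%, against 4.79%, and the RFX motif (GTTGCCA) in 2.51% and 3.72%, against 2.80%. Promoters of the 2 calls differ in GC content, and its part in these shares was not tested. In distal intervals the AP-1 motif (TGANTCA) was in 12.8% of H3K27ac-higher and 7.93% of CTCF-higher windows, against 9.72% of all distal windows. The TEAD motif (GGAATG) was in 14.9% and 16.8%, against 15.7%. A match is a description of letters and not a bound site. The 120 bases upstream of the ATP5F1C start, from RefSeq (GRCh38.p14), lie inside its H3K27ac-higher interval and show an NRF1 match on both strands as capitals. This motif was in 1.91% of such 120-base stretches of 35116 RefSeq promoters.
ATP5F1C, chr10:7788057-7788176, forward strand: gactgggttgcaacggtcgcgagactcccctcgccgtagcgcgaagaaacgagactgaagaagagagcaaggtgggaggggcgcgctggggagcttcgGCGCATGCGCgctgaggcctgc

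A small set of intervals was strong for both antibodies. Of 2452 intervals in the top 5% by counts per kb in both CTCF libraries and 2611 in both H3K27ac libraries, 162 were in both sets, 6.61% and 6.20% of each. Over all tested intervals the H3K27ac set was 4.395% and the CTCF set 4.13%, so the overlap was not below the share that the sets take of all intervals. Of these 162, 61.1% were promoters and 19.8% held the consensus, and the median log2 ratio was 0.21. The interval near FOXF2, a mesenchymal forkhead gene, had 584 and 520 CTCF counts and 552 and 544 H3K27ac counts. RAD21 counts there were 566 and 365 and eGFP-YAP counts 1343 and 1254. An exon of an unnamed long noncoding RNA on chromosome 13 had 2413 and 2091 CTCF, 557 and 536 H3K27ac, 2752 and 1567 RAD21 and 6501 and 5965 eGFP-YAP counts. That interval is among the 36 dominant ones. High counts with all 4 antibodies there are given as measured, and the part of mapping or open chromatin in them was not tested. Its log2 ratio of 2.72 was 0.22 with GC-corrected offsets, which ended the call.

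Joining intervals of the same call within 12.5 kb left 63.2% of CTCF-higher and 45.4% of H3K27ac-higher intervals alone. It gave 336 H3K27ac-higher domains with at least 5 intervals, holding 8.27% of those intervals, and 64 CTCF-higher domains, holding 1.79%. Among H3K27ac domains were the HOXC cluster (27 intervals over 116 kb), the HOXA cluster (18 over 70.6 kb), the HOXB cluster (17 over 56.5 kb) and ARID1B (13 over 51.6 kb), a subunit gene of the BAF remodelling complex. The domains named here and the arrays that follow were picked after their values were seen. Each array is bounded by joined calls of one kind, so the share of its intervals with that call follows from the choice and is given only as a description.

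Several CTCF domains are tandem repeats. DXZ4 is a macrosatellite on the X chromosome, transcribed as DANT1 and DANT2 and known for CTCF binding on the inactive X. Over all DANT1 and DANT2 intervals, 31 of 36 were CTCF-higher and 3 were H3K27ac-higher, with log2 ratios from -3.85 to 4.15 and a median of 2.19. The repeat itself, between chrX positions 115843438 and 115898988, had 21 tested intervals spaced by a median of 2976 bp. They held 56075 and 47705 CTCF counts, 1.55% and 1.93% of those libraries, against 20055 and 19300 H3K27ac counts. The median log2 ratio was 2.21, and none of the 21 reached the consensus at 1 mismatch, while 18 did at 2 mismatches. Without the dominant intervals, 7 were left, all CTCF-higher, with a median of 1.92. The same 50 bases surround the best match of 14 of these intervals, printed here as the repeated unit.
DXZ4 unit, chrX:115847212-115847261, reverse strand, 2 mismatches: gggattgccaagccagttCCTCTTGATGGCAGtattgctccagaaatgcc

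FIRRE, a noncoding RNA locus that also carries CTCF repeats on the X, had 12 intervals with a median log2 ratio of 3.58. Its CTCF counts were 3009 and 1986, against 316 and 317 for H3K27ac. A pair of arrays on chromosome 19 had their matches on opposite strands. The 20 intervals at BSPH1 and SULT2A1 had a median log2 ratio of 4.25, and the 11 consensus matches all lay on the forward strand. The 20 at IZUMO2 had a median of 4.65, and its 11 matches all lay on the reverse strand. The same 50 bases surrounded the match in 9 intervals of each array, so reads may be shared between them. Copies of the same unit laid in the same direction share a strand, so strand agreement within an array follows from the repeat. At DXZ4, 15 of the 18 matches at 2 mismatches also lay on the same strand, the reverse.
IZUMO2 array, chr19:50092709-50092758, reverse strand, 1 mismatch: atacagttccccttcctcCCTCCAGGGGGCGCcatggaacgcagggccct
BSPH1 array, chr19:47907529-47907578, forward strand, 1 mismatch: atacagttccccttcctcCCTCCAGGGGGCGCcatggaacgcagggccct
At the IZUMO2 copy shown, CTCF counts were 2581 and 2040 against 135 and 132 for H3K27ac. At the BSPH1 copy they were 1648 and 1504 against 101 and 102.

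Ribosomal RNA genes were among these domains. A pair at the 45S genes on chromosome 21, with 26 and 41 tested intervals, had median log2 ratios of 3.78 and 3.04. One at the 5S genes on chromosome 1, with 34, had a median of -1.18. With GC-corrected offsets the 5S median was 0.59, with 21 intervals CTCF-higher, and with a minimum mean of 50 counts it was 0.12, so its side depends on those choices. Medians of the other arrays kept their side with GC-corrected offsets, at 2.72 for FIRRE, 4.16 and 4.54 for the chromosome 19 arrays, 4.44 for DXZ4, and 5.44 and 3.96 for the 45S domains. All of these are repeated sequences, and the number of copies in HEK293 is not given in the sources used here.

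RAD21 and eGFP-YAP, which the calls did not use, were measured at the same intervals. Inside each vehicle library, RAD21 counts per kb in CTCF-higher intervals exceeded those in H3K27ac-higher intervals by a log2 ratio of 1.28 ± 0.26 (SD, n = 2), with values of 1.10 and 1.47. The same ratio for eGFP-YAP was 0.02 ± 0.09. Without the 36 dominant intervals, a setting chosen after seeing the data, these were 0.63 ± 0.05 for RAD21 and -0.90 ± 0.02 for eGFP-YAP. RAD21 thus kept its direction at a smaller size, and eGFP-YAP was lower in CTCF-higher intervals once those intervals were set aside. The exact permutation p of RAD21 against eGFP-YAP was 0.33, the smallest possible. The 2 RAD21 libraries held 1341257 and 602195 counts in the analysed intervals, fewer than the other targets.

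**Figure D5:**
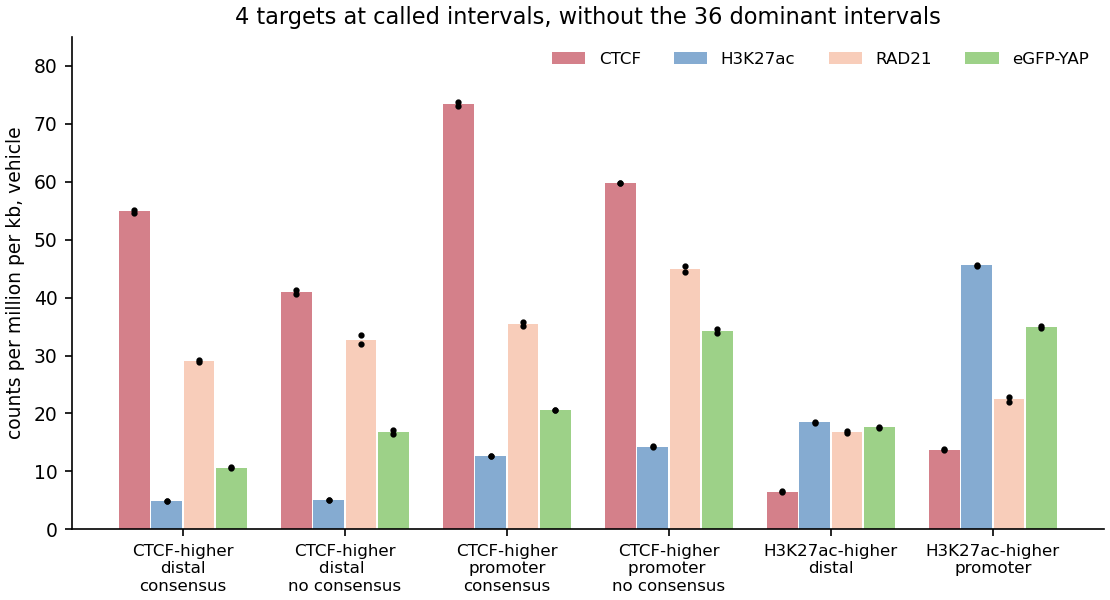
CPM per kb (y axis, of analysed counts, not TMM-scaled) of CTCF, H3K27ac, RAD21 and eGFP-YAP in 6 classes of called intervals with vehicle, without the 36 dominant intervals. Bars are means and points the 2 libraries; CTCF and H3K27ac chose the classes and are shown as a description. RAD21 is at 29.0 in distal CTCF-higher intervals with a consensus and 16.8 in distal H3K27ac-higher intervals, and eGFP-YAP is at 10.6 and 17.6. Intervals called for neither are not among these classes and are at 27.29 for RAD21 and 26.04 for eGFP-YAP.

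By class, and without the dominant intervals, RAD21 was at 29.0 ± 0.252 CPM per kb in distal CTCF-higher intervals with a consensus and at 32.7 ± 1.11 in those without. These are pooled levels. The median interval was at 21.7 ± 0.695 with a consensus and 20.0 ± 0.752 without, the other order. Pooled RAD21 was at 16.8 ± 0.161 in distal and 22.4 ± 0.522 in promoter H3K27ac-higher intervals. In intervals called for neither, promoter and distal together, it was at 27.29 ± 0.796, with the median interval at 19.01 ± 0.217. That pooled level was near the one of distal CTCF-higher intervals with a consensus and above both H3K27ac-higher classes. The RAD21 contrast thus lay partly in a low level at H3K27ac-higher intervals. eGFP-YAP was lowest of these in distal CTCF-higher intervals with a consensus, at 10.6 ± 0.0455. It was at 17.6 ± 0.0590 in distal and 34.9 ± 0.151 in promoter H3K27ac-higher intervals. In intervals called for neither, eGFP-YAP was at 26.04 ± 0.0614, between those H3K27ac-higher classes. At CTCF-higher promoters without a consensus it was at 34.3 ± 0.445, level with H3K27ac-higher promoters, while the median interval of that class was at 11.4 against 25.3. A few intervals therefore carry that sum. With the dominant intervals that class had stood at 105 ± 4.17.

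The contrast was repeated in the sorbitol libraries, which the vehicle calls did not use. Of 53931 intervals tested there, 30.7% were CTCF-higher and 33.7% H3K27ac-higher. Of intervals tested in both, 13152 of 16781 CTCF-higher calls (78.4%) and 15804 of 24467 H3K27ac-higher calls (64.6%) were made in the same direction. The CTCF-higher calls testable with sorbitol were 66.2% of all such vehicle calls, and the H3K27ac-higher ones 95.6%. Over all vehicle calls, tested again or not, 51.9% and 61.8% were repeated, the reverse order of the shares among tested intervals. Read from the other side, the repeated calls were 84.3% and 92.4% of the sorbitol calls. H3K27ac-higher promoters recurred in 71.7% of cases and distal ones in 51.4%, while CTCF-higher promoters and distal intervals recurred in 78.0% and 78.5%. Median log2 ratios were 2.88 with vehicle and 2.43 with sorbitol for the CTCF-higher list, and -2.33 and -1.59 for the H3K27ac-higher list. A list chosen on the vehicle libraries tends to be less extreme in others, and the CTCF libraries with sorbitol held 1523792 and 1565071 counts, so these medians are given as values only.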

How the data were processed

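The values deposited by the authors are raw read counts in a shared set of peak intervals. The submitters' processing notes name Trim Galore, FastQC, BWA 0.7.17, SAMtools, Picard, bedtools 2.31.1 and MACS2 2.2.6 and the build hg38, with no role or order; whether the peak calls used single libraries or pooled ones is not given in the sources used here. All 74404 intervals fell within hg38 chromosome lengths. Annotation came from GENCODE release 44.

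Counts of the 4 vehicle libraries were fitted with edgeR 4.0.16 in R 4.3.3 (quasi-likelihood, robust, two-sided, TMM, filterByExpr with a minimum of 10 counts), without a replicate block, and p-values were adjusted over all tested intervals. The same fit was made apart on the sorbitol libraries. The step was tested on simulated data. With 200 of 54776 intervals changed 2-fold, 28.5% were recovered and 5% of calls were false. With 200 of 54830 changed 4-fold, these were 78.5% and 6.55%. Far fewer intervals were changed there than the 85.7% called here, so the simulation does not cover that setting. Levels are counts per 1e6 of the TMM-scaled or analysed total. Standard errors are of the log2 ratio. A bound uses a floor of 3 counts per library; bounds and intervals (95%, exact) cover counting error only, since PCR copies are not independent molecules.

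Intervals were named by a rule: adjusted p under 0.05, mean level above the median, antibodies that do not overlap, at most 0.1% of a library, 1 Mb apart, not on chromosome 8, and the 5 most extreme per side and position, of which 1 is not reported here. Named too were 4 intervals strong in both, and the lowest, middle and highest of each list; other genes and all arrays were chosen after their values were seen. The members and the 12 gene lists were chosen with earlier results of these data known. Alternatives were other scalings, DESeq2 1.42.0, other filters, one fit on 16 libraries, GC-corrected offsets (lowess, span 0.3), the replicate block and leaving out each library.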

Additional observations from a re-analysis of the deposited data

Results flagged for a closer look

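In 160 intervals CTCF was called higher than H3K27ac with vehicle and lower with sorbitol, and in 1129 intervals H3K27ac was called higher with vehicle and lower with sorbitol. Both were noted because the same contrast gave opposite calls in the 2 treatments; the difference between treatments itself was not tested. Of the 1129 intervals, 82.8% were promoters, with a median GC content of 66.7%, and their median log2 ratio of CTCF to H3K27ac was -1.30 with vehicle and 1.19 with sorbitol. Of the 160, 36.9% were promoters, with medians of 1.10 and -1.76.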

How the results depend on the processing

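With a mean of at least 50 counts, which left 21201 intervals, 8429 were CTCF-higher and 9899 H3K27ac-higher, and 784 of the H3K27ac-higher calls were CTCF-higher there. DESeq2 called 23610 and 16776, and GC-corrected offsets 22391 and 18739, with 408 and 2343 calls of the opposite side. Of calls by scaling, 49.8% were CTCF-higher with TMM and 54.9% with the total. The replicate numbers share only a number: deviations of same-numbered libraries correlated at 0.002, and a replicate block gave 24242 and 24061 calls, or 20960 and 17753 with GC-corrected offsets. Leaving out each library gave 20528 to 23878 CTCF-higher and 19511 to 23471 H3K27ac-higher calls, where a lone library is assumed to vary like the others.

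The median difference between distal consensus intervals and promoters was 5.25 with the mean of at least 50 counts, 4.97 with no filter, 2.50 with GC-corrected offsets, 4.89 with promoters within 2 kb and 5.25 with exact matches, and 4.97 to 5.04 leaving out each library. Vehicle calls repeated with sorbitol in 70.2% of cases, 74.3% with scaling to the total and 72.3% with GC-corrected offsets. The promoter and consensus share differences and the RAD21 ratio kept their sign under each alternative run. Of 168 values of the 24 extreme or strong intervals under alternatives, 167 kept their side and call. Of the 36 examples of gene lists, 34 were called, and with GC-corrected offsets 10 of these lost the call (GNAS, GADD45A, SALL1, NPHS1, RPS29, RPL36, PCDHGC4, HOXA4, ZNF134, H1-10) and 1, VIM, changed side; the cause was not tested. RAD21 and eGFP-YAP depth limits values per interval, which are given as counts.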
